A study of Mus musculus with 6 samples.

Results

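The genes described are those of oxidative phosphorylation (OXPHOS), the respiratory chain and ATP synthase of mitochondria. They were chosen by gene symbol alone. Nuclear members have symbols that begin with Nduf, Uqcr, Cox followed by 4 to 8, or Atp5, or are Sdha, Sdhb, Sdhc or Sdhd. The mitochondrial members are the protein genes carried by the mitochondrial genome itself. The rule found 104 of the 16108 genes in the expression table, of which 91 were nuclear and 13 mitochondrial. Of the nuclear members, 80 encode subunits of complexes I to V, 8 encode assembly factors of complex I (Ndufaf1 to Ndufaf8), and the remaining 3 are Cox7a2l, Cox6c2 and Ndufb4c.

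The cells were RAW264.7, an established mouse macrophage-like line, used at the third passage. Cells labelled acoustics-on were kept for 48 h on a device switched on at 5 kHz and 18 V (measured peak to peak), and cells labelled acoustics-off were kept for 48 h without acoustics. Each group had 3 RNA-seq libraries. The labels do not say whether the 3 replicates of a group were separate cultures, so p-values measure the spread between these libraries only.

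Complexes I to IV pass electrons from NADH and succinate to oxygen. Complexes I, III and IV pump protons across the inner mitochondrial membrane as they do so, and complex V, the ATP synthase, uses that proton gradient to make ATP. Complexes I, III, IV and V are built from subunits of both genomes, so nuclear and mitochondrial transcripts have to supply parts of the same machines, while complex II is wholly nuclear. In macrophages, the balance between OXPHOS and glycolysis is known to shift with the activation state.

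Values are FPKM, fragments per kilobase of transcript scaled to the number of mapped fragments in each library. Differences are acoustics-on minus acoustics-off on the log2(FPKM + 1) scale and were tested with limma, with Benjamini-Hochberg adjustment over the 11664 genes that had at least 0.5 FPKM in at least 3 libraries. In bulk RNA, fewer cells with a transcript and less of it per cell cannot be told apart. All 7 macrophage markers examined were measured, and none passed the test. In 5 of them (Csf1r, Itgam, Adgre1, Cd68 and Lyz2) every acoustics-on library was below every acoustics-off library, against 17.7% of all genes. Csf1r, the receptor for macrophage colony-stimulating factor, was called lower without acoustics-on replicate 1 (adjusted p = 0.0363), where 3.11% of all genes were. It was also called lower in the authors' deposited table (adjusted p = 0.00443), where 2.49% of all genes were. With each library's length and GC trends divided out, Csf1r was not called (adjusted p = 0.0555). Markers of epithelial, T and B cells were too low to be tested, and of the fibroblast markers only Col3a1 could be tested, at 0.4 to 1.29 FPKM. Acoustics-on replicate 1 stood apart from the other libraries: across 10555 genes with known lengths, its deviation from the acoustics-off mean ran with transcript length at a Spearman rho of -0.58, so that short transcripts read higher. In acoustics-on replicate 2 that rho was -0.46 and in replicate 3 it was 0.03. OXPHOS subunits have short transcripts, so medians, and single genes where the value or call moved most, are also given without replicate 1 and after each library's length and GC trends were divided out.

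No OXPHOS gene passed the test in either direction among the 103 members that could be tested, against 2.07% of all genes, 1.5% higher and 0.574% lower. Nuclear subunit genes nevertheless lay mostly above their acoustics-off level and mitochondrial-genome genes mostly below it. The median log2 difference was 0.36 over the 79 tested nuclear subunit genes, of which 72 were above 0, and -0.36 over the 13 mitochondrial genes, of which 4 were above 0. Over all genes tested the median was -0.03 and 47.0% lay above 0. At an unadjusted p under 0.05 there were 14 members, 11 nuclear and 3 mitochondrial, of 103, a smaller share than the 19.7% of all genes. In the authors' deposited table, 5 nuclear members had an adjusted p under 0.05 and were higher (Ndufa4, Cox6a2, Ndufaf5, Ndufaf6 and Ndufs5), where 5.08% of all genes were higher, and 1 mitochondrial member, ND4L, was lower, where 2.49% of all genes were lower (7.56% in either direction). Those 6 of 103 are a share near the background.

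The nuclear difference was uneven across the acoustics-on libraries. Against the acoustics-off mean, the median nuclear subunit gene was at 0.94 in replicate 1, 0.23 in replicate 2 and -0.06 in replicate 3. Genes above that mean numbered 75, 67 and 35 of 79 in those libraries. Without replicate 1 the median difference was 0.11, after the length and GC correction 0.06, without replicate 3 0.58, and under quantile normalization 0.21. All 3 acoustics-on libraries exceeded all 3 acoustics-off libraries in 29 of the 90 tested nuclear members, or 32.2%, against 17.1% of all genes, and 1 nuclear member, Sdha, was lower in all 3, against 17.7%. With replicate 1 left out the count above was 31, or 34.4%, against 22.4%, and the count below was 9, against 23.3%. After the length and GC correction 26 nuclear members, or 28.9%, lay above (background 18.1%) and 15, or 16.7%, below (background 18.5%). Within the 79 nuclear subunit genes, the deviation in replicate 1 ran with annotated transcript length at a rho of -0.34. With length read from the deposited tables, as normalised reads per FPKM, the rho was -0.55. Both are descriptions across genes, which are not independent replicates.

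**Figure D1:**
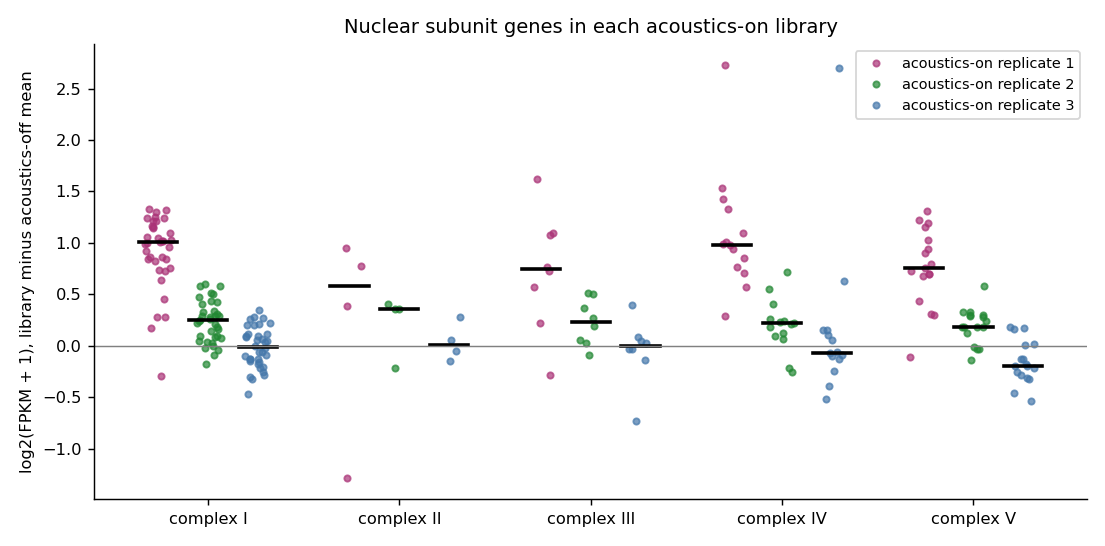
Log2(FPKM + 1) of each tested nuclear subunit gene in each acoustics-on library minus the acoustics-off mean, by complex; each point is a gene and black bars are medians. The median of replicate 1 is highest in every complex (1.01 in complex I), that of replicate 2 is between, and that of replicate 3 is lowest, at -0.01 in complex I and -0.20 in complex V.

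Complex I, the NADH dehydrogenase, had a median log2 difference of 0.42 over its 36 nuclear subunit genes, with 34 above 0. Its 7 nuclear core genes, whose products hold the flavin and the iron-sulphur clusters, had a median of 0.41 and its 29 accessory genes 0.46. Without replicate 1 the medians were 0.16 for complex I, 0.20 for core and 0.16 for accessory genes, and after the length and GC correction they were 0.14, 0.14 and 0.18. Ndufv1, the core subunit that binds NADH and flavin, read 66.5, 76.7 and 70.3 FPKM with acoustics off and 121, 96.7 and 82.7 with acoustics on. Its groups did not overlap, with a log2 difference of 0.47 ± 0.17 (SE, n = 3 per group) and a limma adjusted p of 0.201. Ndufs1, the largest core subunit, showed no such separation: it read 50.2, 55.9 and 53.2 FPKM against 43.1, 61.8 and 63.7, so that replicate 1 was the lowest library of all (log2 difference 0.06 ± 0.17, adjusted p = 0.845).

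Ndufs5, an accessory subunit, had the highest difference in complex I. It read 131, 150.4 and 136 FPKM with acoustics off and 329, 208 and 177 with acoustics on, so that every acoustics-on library was above every acoustics-off library. The log2 difference was 0.72 ± 0.24 (SE, n = 3 per group), with a limma adjusted p of 0.18. After the length and GC correction it was 0.39 with an adjusted p of 0.044, and without replicate 1 it was 0.46 with an adjusted p of 0.0518. Ndufa6, the accessory subunit with the lowest difference, read 215, 219 and 205 FPKM against 258, 188 and 154. Its replicate 1 was the highest library and its replicates 2 and 3 the lowest. Its difference was -0.12 ± 0.20 (adjusted p = 0.723) as deposited and -0.48 after the length and GC correction (adjusted p = 0.0494), where it was called lower.

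The complex I assembly factors, which help to build the enzyme and are not part of it, had a median of 0.44 over 8 genes, and in 5 of the 8 every acoustics-on library was above every acoustics-off library, against 17.1% of all genes. The median was 0.16 without replicate 1 and 0.30 after the length and GC correction. After that correction only Ndufaf5 and Ndufaf6 still had every acoustics-on library above every acoustics-off library, where 18.1% of all genes did. Ndufaf6 had the smallest adjusted p of all members. It read 7.88, 10.2 and 7.90 FPKM with acoustics off and 17.0, 12.7 and 14.1 with acoustics on, a difference of 0.69 ± 0.16 (SE, n = 3 per group; limma adjusted p = 0.09). Ndufaf5, an enzyme that modifies the core subunit NDUFS7 during assembly, read 9.93, 12.1 and 11.6 FPKM against 20.5, 17.8 and 15.1 (0.62 ± 0.15, adjusted p = 0.103). The differences without replicate 1 were 0.58 for Ndufaf6 (adjusted p = 0.0477) and 0.52 for Ndufaf5 (adjusted p = 0.0511). After the length and GC correction they were 0.45 (adjusted p = 0.119) and 0.39 (adjusted p = 0.0637). Of 18 alternative limma fits, 1 called Ndufaf6 and 2 called Ndufaf5, and the adjusted p reached 0.401 and 0.436. In the authors' deposited table Ndufaf6 had an adjusted p of 0.0156 and Ndufaf5 one of 0.0178. Ndufaf5 and Ndufaf6 were singled out after their values were seen.

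Complex II, succinate dehydrogenase, also works in the tricarboxylic acid cycle, and its 4 genes had differences of both signs, with a median of 0.32 (0.19 without replicate 1). Sdha, the catalytic flavoprotein, read 219.5, 239.7 and 240.04 FPKM with acoustics off and 94.96, 201 and 211 with acoustics on. All 3 acoustics-on libraries were below the acoustics-off range, but the distance was large only in replicate 1 (log2 difference -0.55 ± 0.30, SE, n = 3 per group; limma adjusted p = 0.337), and without it the difference was -0.18 (adjusted p = 0.239). Sdhb, the iron-sulphur subunit that pairs with Sdha, had a difference of the opposite sign, at 90.4, 99.2 and 99.0 FPKM against 187, 124 and 117. Its groups did not overlap either (0.53 ± 0.20, adjusted p = 0.216), and without replicate 1 the difference was 0.32 (adjusted p = 0.0658). The membrane anchor genes were at 0.40 (Sdhc) and 0.25 (Sdhd).

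Complex III, the cytochrome bc1 complex, had a median of 0.29 over 8 nuclear genes, with 0.15 without replicate 1 and 0.04 after the length and GC correction. Uqcrq, one of its small subunits, was highest, at 146, 182 and 153 FPKM with acoustics off and 492, 228 and 211 with acoustics on. Its groups did not overlap, with a difference of 0.84 ± 0.32 (SE, n = 3 per group; limma adjusted p = 0.225), and 0.46 without replicate 1 (adjusted p = 0.0648). Uqcrh, the hinge protein that helps cytochrome c to dock, was lowest, at 732, 749 and 753 FPKM against 866, 702 and 447. It was above the acoustics-off range in replicate 1 and below it in replicates 2 and 3, with a difference of -0.20 ± 0.25 (adjusted p = 0.639), and after the length and GC correction it was called lower at -0.55 (adjusted p = 0.0367). The core genes Uqcrc1 and Uqcrc2 differed by 0.32 ± 0.19 (adjusted p = 0.358) and 0.02 ± 0.17 (adjusted p = 0.937), and the Rieske iron-sulphur gene Uqcrfs1 by 0.16 ± 0.19 (adjusted p = 0.624).

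Complex IV, cytochrome c oxidase, had a median of 0.39 over its 14 tested nuclear genes, with 0.07 without replicate 1 and 0.04 after the length and GC correction. Ndufa4, long listed with complex I and now placed in complex IV, was the nuclear subunit with the smallest adjusted p. It read 95.7, 108 and 104 FPKM with acoustics off and 276, 168 and 159 with acoustics on. The lowest acoustics-on library was well above the highest acoustics-off library. The mean was 102 ± 6.13 FPKM (SD, n = 3) off and 201 ± 65.2 on, and the log2 difference was 0.92 ± 0.22 (SE) with a limma adjusted p of 0.0987. It was called higher without replicate 1 (0.67, adjusted p = 0.0105), after the length and GC correction (0.58, adjusted p = 0.0249) and in the authors' deposited table (0.97, adjusted p = 0.00412). Of 18 alternative limma fits, only 6 called Ndufa4, and its adjusted p reached 0.401. AA467197, outside the rule and singled out after its values were seen, encodes NMES1, a protein related to NDUFA4 that is known from inflamed macrophages and described as taking its place in complex IV. It was listed at 0 in all 3 acoustics-off libraries and at 0.085, 2.74 and 3.39 FPKM in the acoustics-on libraries, so that replicates 2 and 3 held it and replicate 1 was close to 0. It was too low for the test used here, and its adjusted p in the authors' deposited table was 5.62e-05. It stayed far below Ndufa4 in all 6 libraries.

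Some complex IV subunits come in isoforms from separate genes. Cox6a2, the heart and skeletal muscle isoform of Cox6a1, read 1.72, 1.69 and 0.664 FPKM with acoustics off and 14.3, 0.979 and 14.0 with acoustics on. Replicates 1 and 3 were alike and far above the rest, while replicate 2 lay within the acoustics-off range. The difference was 1.74 ± 0.77 (SE, n = 3 per group; limma adjusted p = 0.266). It was 1.24 without replicate 1 (adjusted p = 0.35) and 2.72 without replicate 2 (adjusted p = 0.0107). Leaving out replicate 2 removes the only low acoustics-on library, so no conclusion is drawn from that call. It was the 1 call among 17 alternatives, the authors' deposited table aside. Cox6a2 made up 0.131% to 0.332% of the summed Cox6a1 and Cox6a2 FPKM with acoustics off and 1.07%, 0.141% and 2.41% with acoustics on. Cox4i1, the most abundant nuclear OXPHOS gene, read 1151, 1253 and 1160 FPKM against 1945, 1298 and 904 (0.15 ± 0.28, adjusted p = 0.758), and its low-oxygen isoform Cox4i2 differed by -0.16 ± 0.22 (adjusted p = 0.67) at levels below 1.6 FPKM in every library. Cox7a1, a muscle isoform, differed by 0.71 ± 0.35 (adjusted p = 0.295; 0.30 without replicate 1) and its relative Cox7a2l, which links complexes III and IV, by -0.11 ± 0.19 (adjusted p = 0.723). Ndufa4l2, a hypoxia-induced relative of Ndufa4, was at 0.0679, 0.309 and 0.105 FPKM against 0.639, 0.453 and 0.467. Its groups did not overlap, but it did not reach the level needed for the test and is the 1 member left untested. The subunit genes Cox5a and Cox5b differed by 0.37 ± 0.27 (adjusted p = 0.442) and 0.47 ± 0.24 (adjusted p = 0.307).

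**Figure D2:**
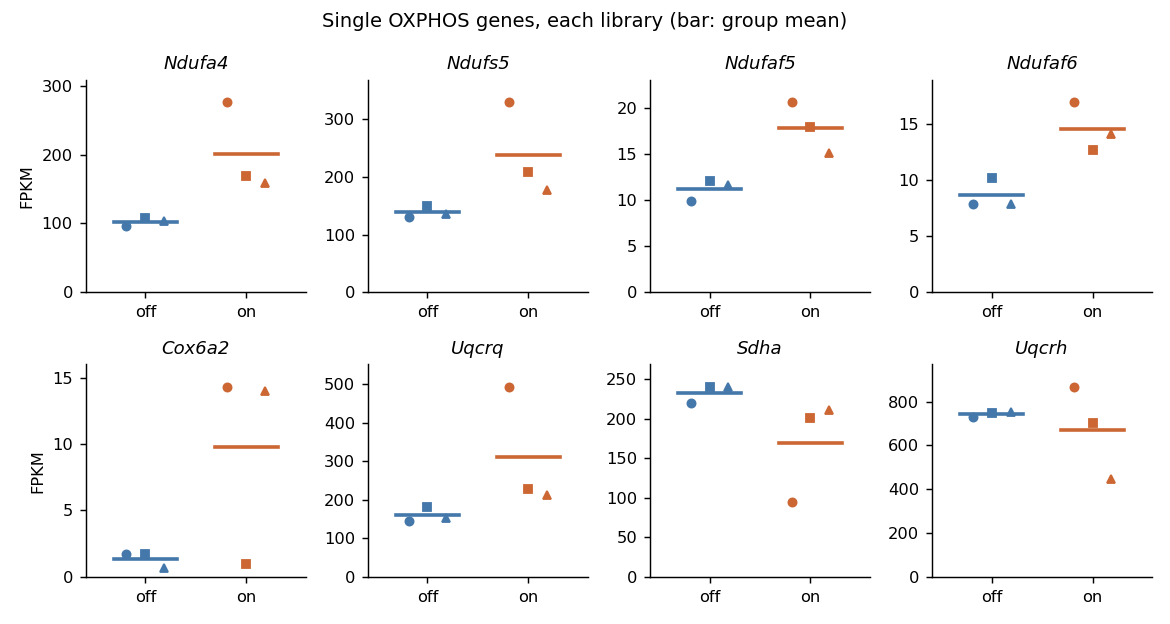
FPKM of 8 nuclear OXPHOS genes in each library (linear axes from 0; circle, square and triangle are replicates 1, 2 and 3; bars are group means). Ndufa4, Ndufs5, Ndufaf5, Ndufaf6 and Uqcrq are higher in all 3 acoustics-on libraries, Sdha is lower in all 3, Cox6a2 is high in replicates 1 and 3 only, and Uqcrh is above and below the acoustics-off libraries.

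Complex V, the ATP synthase, had a median of 0.29 over its 17 nuclear genes, and -0.01 without replicate 1 or after the length and GC correction. The 5 genes of the F1 part, which holds the catalytic head and the central stalk, had a median of 0.12. The 12 nuclear genes of the membrane part and the peripheral stalk had a median of 0.33. Without replicate 1 these medians were -0.02 and 0.01. Atp5b, the catalytic beta subunit, read 586, 624 and 606 FPKM with acoustics off and 819, 737 and 676 with acoustics on, with no overlap (0.29 ± 0.15, SE, n = 3 per group; limma adjusted p = 0.307). Atp5a1, the alpha subunit that alternates with it in the head, read 492.7, 496.04 and 500 FPKM against 461, 493 and 433 (-0.10 ± 0.14, adjusted p = 0.654). The ring of c subunits is encoded by 3 genes whose mature proteins are the same, with log2 differences that ranged widely: Atp5g1 differed by 0.57 ± 0.26 (adjusted p = 0.281), Atp5g3 by 0.25 ± 0.22 (adjusted p = 0.516) and Atp5g2 by -0.09 ± 0.23 (adjusted p = 0.824). Without replicate 1 they were at 0.26, 0.03 and -0.28. Atp5md, a small membrane subunit, was highest in the complex, at 0.69 ± 0.28 (adjusted p = 0.246; 0.38 without replicate 1).

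The mitochondrial genome is transcribed from both strands as long precursors that are then cut into separate messages. Its genes on the same strand share their start of transcription and can differ in processing and stability. Its 13 protein genes made up 5.88%, 3.88% and 4.08% of all FPKM with acoustics off and 3.65%, 3.04% and 4.47% with acoustics on, and the groups overlapped. Acoustics-off replicate 1 was the highest of its group, with a median gene 0.37 above the acoustics-off mean. Against that mean, the median gene was at -0.29, -0.55 and -0.24 in acoustics-on replicates 1, 2 and 3, and 7, 12 and 12 of the 13 genes were below it. None of the 13 genes passed the test, 3 (CYTB, ND4 and ND4L) were below the acoustics-off range in every acoustics-on library, or 23.1% against 17.7% of all genes, and none was above it, against 17.1%. The median difference was -0.18 without acoustics-off replicate 1. Without acoustics-on replicate 1 it was -0.39, and 7 genes lay below all acoustics-off libraries, or 53.8% against 23.3% of all genes. After the length and GC correction the median was -0.66. Its trends were fitted on genes outside the mitochondrial genome. The 13 genes are short and low in GC (medians 784 nt and 37.1%, against 2914 nt and 50.3% over all genes tested). Whether those trends hold for them was not tested. The ribosomal RNA genes of the same genome, mt-Rnr1 and mt-Rnr2, differed by 0.10 ± 0.28 (adjusted p = 0.845) and -0.25 ± 0.26 (adjusted p = 0.58). The libraries were depleted of ribosomal RNA per the labels' protocols.

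**Figure D3:**
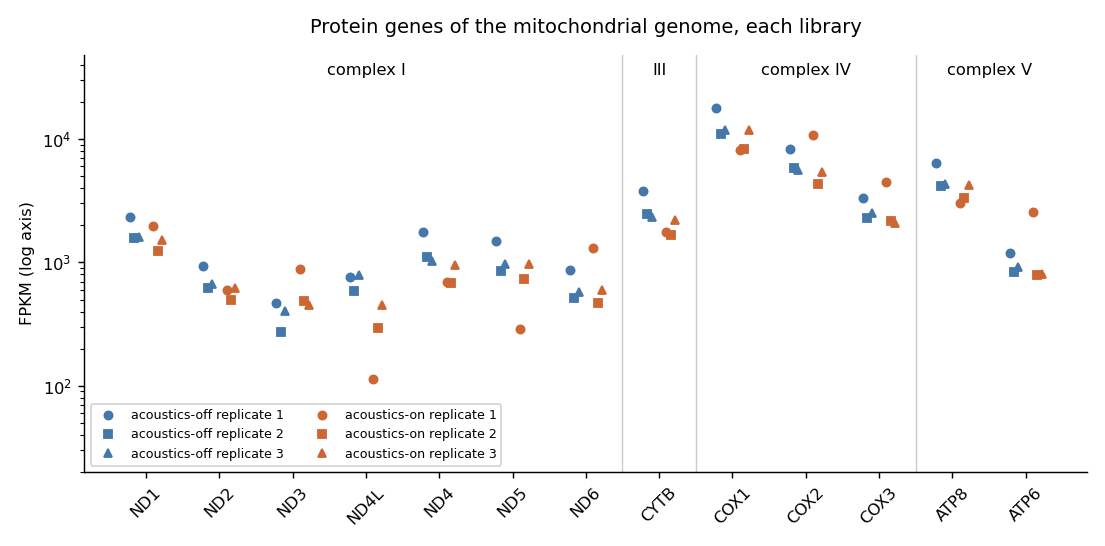
FPKM of the 13 mitochondrial-genome protein genes in each library, on a log axis and grouped by complex. Outside ND3, acoustics-on replicates 2 and 3 sit among or below the acoustics-off libraries, ND4L is lower in all 3 acoustics-on libraries, and acoustics-on replicate 1 is high in ATP6, COX2, COX3, ND3 and ND6 and low in ND5 and ND4L.

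In complex I, ND4L had the lowest difference of all members. It read 756, 584 and 786 FPKM with acoustics off and 113, 293 and 452 with acoustics on. All 3 acoustics-on libraries were lower, with replicate 1 the lowest and replicate 3 the nearest to the acoustics-off range. The difference was -1.51 ± 0.47 (SE, n = 3 per group; limma adjusted p = 0.166), and -0.95 without replicate 1 (adjusted p = 0.0511). In the authors' deposited table it had a log2 fold change of -1.31 and an adjusted p of 0.0342. ND4, which follows ND4L on the same message, read 1753, 1100 and 1020.3 FPKM against 700, 683 and 945 (-0.71 ± 0.26, adjusted p = 0.209). ND3 was the only mitochondrial gene with a difference over 0.3, at 468, 274 and 400.2 FPKM against 882, 491 and 453 (0.64 ± 0.31, adjusted p = 0.295). ND5 had its 1 extreme library in acoustics-on replicate 1, with 1479, 859 and 969 FPKM against 291, 738 and 965 (-0.85 ± 0.45, adjusted p = 0.322). ND1, ND2 and ND6 differed by -0.22 ± 0.25 (adjusted p = 0.605), -0.36 ± 0.21 (adjusted p = 0.349) and 0.17 ± 0.40 (adjusted p = 0.809).

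CYTB, the only mitochondrial subunit of complex III, read 3778, 2481 and 2311 FPKM with acoustics off and 1755, 1682 and 2214 with acoustics on. Its groups did not overlap, though replicate 3 lay just below the lowest acoustics-off library (-0.58 ± 0.24, SE, n = 3 per group; limma adjusted p = 0.254). COX1, the catalytic subunit of complex IV and the most abundant OXPHOS message, read 17846, 10901 and 11784 FPKM against 8122, 8349 and 11773, with replicate 3 inside the acoustics-off range (-0.51 ± 0.28, adjusted p = 0.331). COX2 and COX3 were highest in acoustics-on replicate 1, at 10666 and 4484 FPKM, and lower in replicates 2 and 3 than in any acoustics-off library. Their differences were -0.04 ± 0.37 (adjusted p = 0.949) and 0.03 ± 0.33 (adjusted p = 0.967). COX1 made up 33.3% to 36.7% of the mitochondrial sum in 5 libraries and 22.2% in acoustics-on replicate 1. In complex V, ATP8 differed by -0.48 ± 0.24 (adjusted p = 0.312) and ATP6 by 0.28 ± 0.46 (adjusted p = 0.73), with ATP6 at 1201, 840 and 909 FPKM against 2578, 790 and 799.

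Some neighbouring mitochondrial genes overlap at their ends, and the ratios of their FPKM values in each library are given here. Why a ratio differed between libraries was not tested. ATP8 (MT:7766-7969) and ATP6 (MT:7927-8607) share a message, as do ND4L (MT:9877-10173) and ND4 (MT:10167-11544), in GENCODE coordinates on GRCm38. ND6 (MT:13552-14070) lies on the opposite strand and overlaps the end of ND5 (MT:11742-13565), and no source used here says whether the counting used strand. The ratio of ATP6 to ATP8 was 0.188, 0.203 and 0.21 with acoustics off and 0.848, 0.236 and 0.19 with acoustics on. The ratio of ND6 to ND5 was 0.585, 0.6 and 0.599 against 4.5, 0.64 and 0.617. In both, replicate 1 stood alone and the other acoustics-on libraries were within or just above the acoustics-off range. The ratio of ND4 to ND4L was 2.32, 1.88 and 1.3 against 6.19, 2.33 and 2.09, again with replicate 1 far out. Exact two-sided permutation tests of the 3 ratios gave p = 0.3, 0.1 and 0.2 in that order, each 0.3 after Benjamini-Hochberg adjustment over the 3, and 0.1 is the smallest p that 3 against 3 libraries can give. The ratios were chosen after the values were seen. FPKM of very short messages also depends on the length used: the deposited tables held 11.52 normalised reads per FPKM and annotated kilobase for ATP8 and 37.5 for COX1, so ATP8 ranks higher by FPKM than by reads per annotated kilobase.

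**Figure D4:**
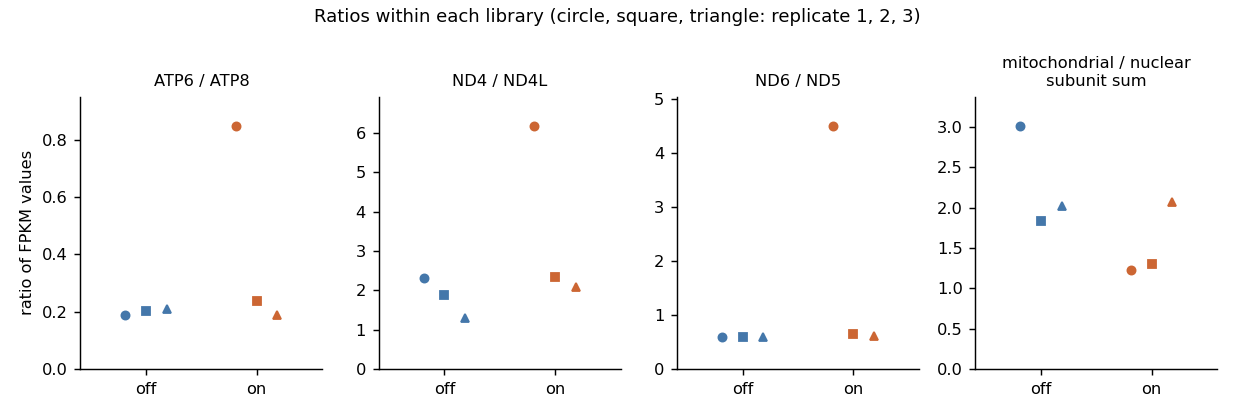
Ratios of FPKM values within each library (linear axes from 0; circle, square and triangle are replicates 1, 2 and 3): ATP6 to ATP8, ND4 to ND4L, ND6 to ND5, and the sum of the 13 mitochondrial genes to the sum of the nuclear subunit genes. Acoustics-on replicate 1 is far from the other 5 libraries in the first 3 ratios (4.5 for ND6 to ND5), while in the sum ratio it is close to replicate 2.

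The balance between the genomes was taken as the sum of mitochondrial-genome FPKM over the sum of nuclear subunit FPKM. It was 3.01, 1.84 and 2.02 with acoustics off and 1.23, 1.29 and 2.07 with acoustics on. Replicates 1 and 2 were below all acoustics-off libraries and replicate 3 was within their range, so the groups overlapped. The nuclear subunit genes held 1.95%, 2.11% and 2.02% of all FPKM with acoustics off and 2.97%, 2.35% and 2.16% with acoustics on, without overlap. Their summed FPKM did overlap, at 16409, 17434 and 16604 against 29741, 19357 and 15457, and acoustics-on replicate 3, the lowest sum, also had the lowest total over all genes, at 716510 FPKM. Within complex I the ratio of mitochondrial to nuclear sums was 2.15, 1.28 and 1.48 against 0.747, 0.913 and 1.39. Within complex IV it was 7.09, 4.31 and 4.81 against 2.91, 3.03 and 4.93.

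**Figure D5:**
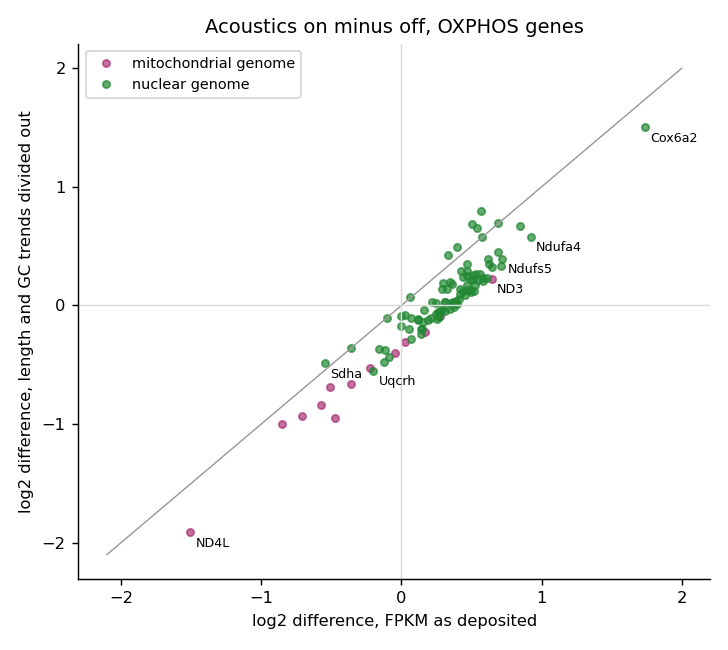
Log2 difference (acoustics-on minus acoustics-off) of each tested OXPHOS gene from FPKM as deposited (x axis) and after the length and GC trends of each library were divided out (y axis); the diagonal marks equal values. Most points lie below the diagonal; the nuclear subunit median moves from 0.36 to 0.06 and the mitochondrial median from -0.36 to -0.66, while Ndufa4 stays above 0 at 0.58. The trends were fitted on genes outside the mitochondrial genome.

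With length and GC trends divided out, 4 nuclear members passed the limma test, where 2.93% of all genes were called higher and 2.24% lower: Ndufa4 and Ndufs5 higher, and Ndufa6 and Uqcrh lower. With the replicate block added to that correction none of the 4 passed. With replicate 1 left out and no correction, Ndufa4 and Ndufaf6 were called higher and no member lower, where 4.34% and 3.11% of all genes were called. Ndufa4 alone was called by both. With the correction and replicate 1 left out, an alternative chosen after seeing the data, Ndufa4, Ndufaf5, Ndufb3 and Ndufs5 were called higher, where 6.24% of all genes were, and Atp5g2, Atp5mpl, Cox7a2l, Ndufa6, Ndufb5 and Uqcrh lower, where 5.36% were. The corrected nuclear medians were 0.14, 0.14, 0.04, 0.04 and -0.01 for complexes I to V, and with replicate 1 also left out they were 0.08, 0.15, 0.08, -0.02 and -0.06.

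The upstream sequences of Ndufa4 (chr6:11900292-11907497, minus strand) and Ndufs5 (chr4:123712710-123718202, minus strand) are shown because these genes were the pair called higher with the correction. Sequences are from RefSeq on GRCm38.p6, reach 250 bases upstream of the RefSeq start and leave out bases inside the GENCODE gene models. Capitals mark a match to GCGCA, any base and GCGC in a row, a form of the core bound by NRF1, a regulator of respiratory genes, with its middle base left free.
Ndufa4, chr6:11907498-11907700, minus strand: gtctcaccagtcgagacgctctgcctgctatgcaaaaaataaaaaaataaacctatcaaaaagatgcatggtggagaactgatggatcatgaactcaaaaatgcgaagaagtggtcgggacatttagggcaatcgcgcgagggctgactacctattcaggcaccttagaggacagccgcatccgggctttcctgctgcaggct
Ndufs5, chr4:123718203-123718436, minus strand: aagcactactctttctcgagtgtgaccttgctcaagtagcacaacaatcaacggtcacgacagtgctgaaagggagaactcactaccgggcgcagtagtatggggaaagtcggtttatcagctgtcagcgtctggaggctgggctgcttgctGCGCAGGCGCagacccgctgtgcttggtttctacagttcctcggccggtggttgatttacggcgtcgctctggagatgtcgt
Promoters were matched for 65 of the 80 nuclear subunit genes. That motif, searched on both strands in the 250 upstream bases, was held by 13 of them, or 20%, Sdha and Atp5g2 among them, and by 4.23% of 27025 genes. Its palindromic form, with T as the free base, was held by 4 (6.15%, against 0.877%), and Ndufs5 was not among them. CCGGAAG, the core bound by ETS factors such as GABPA, was held by 12 (18.5%, against 7.83%), Uqcrh among them, and CCAAT by 28 (43.1%, against 37.5%). Ndufa4 held none of these letters in that window. Among regulators of respiratory genes, Esrra read 29.3, 37.8 and 31.8 FPKM against 58.3, 49.7 and 44.0 (0.60 ± 0.16, SE, n = 3 per group; limma adjusted p = 0.112) and Gabpa 19.0, 17.3 and 18.2 against 7.05, 14.1 and 16.03 (-0.59 ± 0.28, adjusted p = 0.287).

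The wider OXPHOS pathway lists also had no gene past the test, against 2.07% of all genes. Of these lists' genes, 11 of 145 in the authors' deposited table had an adjusted p under 0.05, all 11 higher, where 5.08% of all genes were higher. The median difference was 0.21 over 18 genes of electron carriers and coenzyme Q synthesis, 0.17 over 33 assembly factors of complexes II to V, and 0.08 over 8 further complex I assembly factors. It was 0.33 over 25 genes of mitochondrial protein import, 0.10 over 16 genes of the tricarboxylic acid cycle, and 0.10 over 17 genes of mitochondrial RNA processing. It was -0.06 over 18 genes of mitochondrial DNA maintenance and transcription and -0.12 over 9 regulators of mitochondrial biogenesis. Without replicate 1 the medians of assembly factors of complexes II to V, protein import, RNA processing and DNA maintenance were 0.03, 0.13, 0.07 and -0.04, and that of biogenesis regulators was -0.08. Cycs, which encodes the cytochrome c that carries electrons from complex III to complex IV, read 50.4, 52.8 and 51.2 FPKM against 113, 72.3 and 79.6, with no overlap (0.74 ± 0.18, SE, n = 3 per group; limma adjusted p = 0.099), and was called without replicate 1 (adjusted p = 0.0146). Cox17, the copper chaperone of complex IV, read 129, 138 and 128 FPKM against 468, 199 and 203 (1.02 ± 0.33, adjusted p = 0.175; without replicate 1, 0.011). Without replicate 1, 7 of the 144 tested genes of these lists were called, all higher, where 4.34% of all genes were called higher. After the length and GC correction neither Cycs (adjusted p = 0.105) nor Cox17 (adjusted p = 0.16) was called. Rexo2, a mitochondrial exonuclease that clears short RNA, had the smallest adjusted p of these lists at 0.0681 (0.63 ± 0.13), and Tefm, the elongation factor of mitochondrial transcription, differed by 0.55 ± 0.14 (adjusted p = 0.0999). Oxa1l, which inserts mitochondrially made subunits into the inner membrane, was below the acoustics-off range in every acoustics-on library, at 73.3, 73.9 and 71.7 FPKM against 63.4, 58.3 and 60.2 (-0.26 ± 0.11, adjusted p = 0.248).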

How the data were processed

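RNA from 3 acoustics-off and 3 acoustics-on libraries of RAW264.7 cells was analysed; a petri dish group named by the submitters was not analysed here. Libraries were depleted of ribosomal RNA per the labels' protocols, although the labels' molecule field reads polyA RNA. The submitters' processing notes name Trim Galore 0.6.8, STAR 2.7.11, Salmon 1.4.0, DESeq2 1.38.2 and build GRCm38, with no order or settings. The deposited FPKM values give each gene's level in each library. A comparison table deposited beside them by the authors holds a mean normalised count per gene (a signal averaged over libraries), a log2 fold change, a test score and p-values; an adjusted p was missing there for 1586 genes and stayed missing. No counts per library were used, so the depth behind each value is unknown and no counting interval is given.

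Per gene, log2(FPKM + 1) was compared with limma 3.58.1 in R 4.3.3 (trended, robust prior, group only), on genes of at least 0.5 FPKM in at least 3 libraries, with adjusted p under 0.05 as the threshold. The correction fitted, for each library, loess trends (span 0.5) of deviation against GENCODE length and GC content outside the mitochondrial genome; 102 of the 104 OXPHOS genes had both values, and Cox6c2 and Ndufb4c were left as deposited. These 2 are close copies of Cox6c and Ndufb4, and how reads were split between copies was not stated in any source used. The script was tested on simulated data. Alternatives were other pseudocounts, filters, scalings, corrections, a replicate block and each library left out.

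The OXPHOS genes and lists were chosen with earlier results of these data known. Named were all mitochondrial members, the highest and lowest member per complex, core and isoform genes, members past the threshold, and from each further list the genes with the smallest p; others are marked as chosen after their values were seen. One core gene that this rule names is not reported here.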

Additional observations from a re-analysis of the deposited data

How the results depend on the processing

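The number of genes changed, 242 in the fit described, was 150 with no filter on low values, 152 with at least 1 FPKM in all libraries, 603 with the length and GC correction, 80 with that correction and a replicate block, and 1098 in the authors' deposited table. It ranged from 17 to 855 with a library left out, at the extremes acoustics-off replicate 2 and acoustics-on replicate 1; without acoustics-off replicate 1 or 3, or acoustics-on replicate 3, it was 26, 25 and 63. Higher genes were 72.3% of calls, 56.7% with the correction and 58.2% without acoustics-on replicate 1. Chosen after seeing the data, a correction using length from the deposited tables gave 681, and the first correction with acoustics-on replicate 1 left out gave 1353.

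Nuclear OXPHOS genes past the threshold, 0 of 90 as reported, numbered 1 under quantile normalization and 1 under scaling to genes outside the mitochondrial genome. They numbered 0 to 2 with a library left out (2 without acoustics-on replicate 1, 1 without acoustics-on replicate 2). With the correction they were 4 of the 603 genes called among 11664 tested, and with the correction and the block 0 of 80. Under the later corrections they were 6 of 681 and 10 of 1353 genes called among 11664. In the authors' deposited table they were 5 of 1098 called among 14522. Mitochondrial OXPHOS genes past the threshold numbered 1 in the authors' deposited table and 0 otherwise. The median of the mitochondrial genome, and of its complex I genes, was -0.66 with the correction, with or without the block, and that of its complex V genes was -0.52. With the correction and acoustics-on replicate 1 left out, the nuclear medians were -0.017 in complex IV and -0.064 in complex V. Why they moved was not tested. Of 739 alternative values for 39 named genes, 716 stayed on the same side of the threshold, 23 newly passed it, and 58, in 16 genes, turned sign with 0 of those past the threshold.

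Libraries with equal replicate numbers showed no shared deviation (correlations of deviations -0.07, -0.02 and -0.004). Such correlations cannot show whether the libraries were paired by design. The replicate block gave 179 genes, with 0 OXPHOS genes among them.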
